A study of Homo sapiens with 26 samples.

Results

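The myeloma lines examined here were the 4 that carry the translocation t(4;14), KMS-11, LP-1, NCI-H929 and OPM-2, out of 26 human B-cell cancer lines in the panel. They were chosen by name from the known genetics of the lines, since the labels give no karyotype, and the rule uses no value from the arrays. They were set against the other 8 multiple myeloma (MM) lines, KMM-1, KMS-12-BM, KMS-12-PE, MM1S, MOLP-8, RPMI-8226, U-266 and AMO-1 (other MM). AMO-1 is a plasmacytoma that the study counted as MM. The 14 DLBCL (diffuse large B-cell lymphoma) lines served as a second background, and the study counted an undifferentiated lymphoma among them. All lines were untreated. KMS-11 and OPM-2 grew in RPMI with 10% FBS, LP-1 in IMDM with 10% FBS and NCI-H929 in RPMI with 20% FBS. The other MM lines all grew in RPMI, KMM-1, MM1S, RPMI-8226 and U-266 with 10% FBS and KMS-12-BM, KMS-12-PE, MOLP-8 and AMO-1 with 20%. Each line was measured once, on 1 HG-U133 Plus 2.0 array, and stands for 1 tumour. The pair KMS-12-BM/KMS-12-PE was derived from 1 patient, and its members are therefore not independent.

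The translocation t(4;14) joins the immunoglobulin heavy chain locus on chromosome 14 to the short arm of chromosome 4. It places NSD2, a histone methyltransferase that dimethylates lysine 36 of histone H3, under one immunoglobulin enhancer, and FGFR3, a receptor tyrosine kinase for fibroblast growth factors, under another on the reciprocal chromosome. NSD2 is overexpressed in essentially all such tumours, while some lose the reciprocal chromosome and with it FGFR3. KMS-11 is also known to carry a MAF translocation, as are MM1S and RPMI-8226 among the other MM lines.

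The stretches of 250 bases before the RefSeq start sites of FGFR3, NSD2 and CT75 are shown because these are the 2 genes of the translocation and the gene of the smallest p. They were taken from RefSeq, build GRCh38.p14, plus strand, and capitals mark the GC box GGGCGG or its reverse complement CCGCCC, with overlapping matches counted separately.
FGFR3, chr4:1793043-1793292: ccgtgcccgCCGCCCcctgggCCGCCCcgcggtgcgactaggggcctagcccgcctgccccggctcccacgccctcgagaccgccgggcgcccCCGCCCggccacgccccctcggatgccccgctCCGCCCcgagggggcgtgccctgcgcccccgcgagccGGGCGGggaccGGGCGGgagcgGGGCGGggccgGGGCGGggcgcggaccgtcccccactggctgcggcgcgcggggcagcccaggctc
NSD2, chr4:1871143-1871392: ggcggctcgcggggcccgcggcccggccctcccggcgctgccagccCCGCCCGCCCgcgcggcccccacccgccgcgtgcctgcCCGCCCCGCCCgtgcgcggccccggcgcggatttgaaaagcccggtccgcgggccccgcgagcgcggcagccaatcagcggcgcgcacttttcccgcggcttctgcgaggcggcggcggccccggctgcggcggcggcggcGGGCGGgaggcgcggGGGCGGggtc
CT75, chr2:222318221-222318470: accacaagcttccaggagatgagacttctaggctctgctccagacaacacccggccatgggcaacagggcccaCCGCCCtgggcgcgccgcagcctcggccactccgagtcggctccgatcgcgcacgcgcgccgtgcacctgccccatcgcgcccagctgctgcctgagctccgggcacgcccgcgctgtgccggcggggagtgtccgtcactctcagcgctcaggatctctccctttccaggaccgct
The FGFR3 stretch held 8 GC boxes, the NSD2 stretch 6 and the CT75 stretch 1, and 42.6% of 35116 promoters held at least 1. G and C made up 86.8% of the bases before FGFR3, 86.0% before NSD2 and 70.0% before CT75, against a median of 58.0% over all promoters.

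FGFR3 was higher in each of the 4 translocated lines than in any other MM line. Its log2 level at probe-set 204379_s_at was 14.34 in KMS-11, 8.68 in LP-1, 11.95 in NCI-H929 and 13.75 in OPM-2, against 4.27 to 4.98 in the 8 other MM lines (median 4.68) and 4.28 to 4.74 in the 14 DLBCL lines. The group means, 12.18 ± 2.55 in t(4;14) MM and 4.62 ± 0.24 in other MM (SD, n = 4 and 8), differed by 7.56 on the log2 scale, a 188-fold difference, with a standard error of 0.80 and an adjusted p of 0.0235 (limma, Benjamini-Hochberg over 54613 probe-sets). The other MM lines lay near the lower end of the scale, so the fold is a ratio to a level that may be background. Each value is a mean over a culture, in which fewer expressing cells and less RNA per cell cannot be told apart. The second FGFR3 probe-set, 204380_s_at, kept the order of the lines, with 11.76 in KMS-11, 9.39 in OPM-2, 6.22 in NCI-H929 and 4.67 in LP-1, against 3.67 to 4.08 in the other MM lines (difference 4.13, adjusted p 0.499). LP-1 was thus the lowest of the 4 on both FGFR3 probe-sets, and lay clear of the other MM lines on both. The adjusted p of 204379_s_at (limma) passed the threshold narrowly and depended on the lines in the fit. With single lines left out it ran from 1.8e-05 to 0.0886. It was 0.0595 to 0.0886 when any 1 of KMM-1, RPMI-8226, U-266, AMO-1 or the KMS-12 pair was left out. It was 0.0838 with the KMS-12 lines averaged and 0.096 with a term for serum. In the lines in 10% serum alone it was 0.595, where the difference was 7.64.

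NSD2 was higher on average in the translocated lines on all 6 of its probe-sets, by 1.52 to 2.62 on the log2 scale, and none of the 6 passed the test. The smallest p was that of 223472_at, at 8.46 in KMS-11, 9.21 in LP-1, 9.59 in NCI-H929 and 9.80 in OPM-2, against 5.81 to 7.44 in other MM and 5.35 to 7.91 in DLBCL. The difference there was 2.62, with a standard error of 0.33 and an adjusted p (limma) of 0.0921. Without KMS-11 it was 2.89 (adjusted p 0.0243), and with other single lines left out the adjusted p rose to as much as 0.26. The 4 lines lay above all 8 others on 4 NSD2 probe-sets, 209053_s_at, 209054_s_at, 222777_s_at and 223472_at.

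The order of the translocated lines differed between the NSD2 probe-sets. On 222777_s_at KMS-11 was lowest at 8.31, with LP-1 at 10.06, NCI-H929 at 10.45 and OPM-2 at 10.91, against 6.02 to 7.91 in other MM. On 222778_s_at KMS-11 was again lowest, at 8.06, within the range of the other MM lines, which reached 8.51. On 209052_s_at, 209053_s_at and 209054_s_at it read 10.42, 11.08 and 10.58, and LP-1 was the lowest, at 8.92, 10.15 and 9.72. OPM-2 was the highest of the 4 on every NSD2 probe-set.

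**Figure D1:**
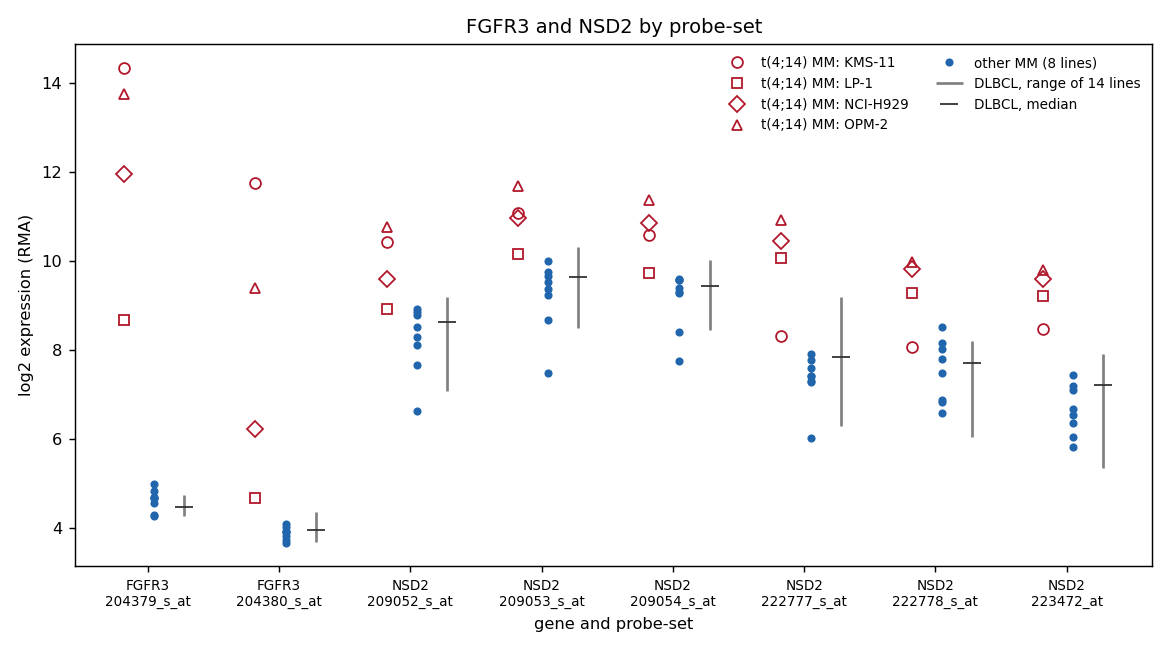
Log2 expression (vertical axis) of every FGFR3 and NSD2 probe-set (horizontal axis) in the 4 t(4;14) MM lines (red open symbols), the 8 other MM lines (blue points) and the 14 DLBCL lines (grey bar, range; tick, median). FGFR3 204379_s_at runs from 8.68 to 14.34 in the t(4;14) lines and does not exceed 4.98 in other MM, while KMS-11 (circle) is the lowest t(4;14) line on the last 3 NSD2 probe-sets and LP-1 (square) on the first 3.

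Apart from FGFR3, no gene measured beside NSD2 on chromosome 4 was called. Of 15 such genes listed around the breakpoint, FGFR3 not among them, 13 were measured, of which 4 had a difference above 0 and 9 below, and their median difference was -0.05, beside -0.011 over all 19775 genes. LETM1, a mitochondrial ion exchanger between FGFR3 and NSD2, differed by -0.17 on the log2 scale, TACC3, a spindle protein, by -0.06, and SLBP, the histone mRNA binding protein, by -0.04. UVSSA, a repair factor, and TMEM129, a ubiquitin ligase of the endoplasmic reticulum, had the highest values of the list, 0.22 and 0.38.

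Over all 54613 probe-sets limma called 2 higher (0.00366%) and 0 lower in the t(4;14) lines. At an unadjusted p under 0.05 there were 2725 (4.99%), with 1584 higher (2.9%) and 1141 lower (2.09%). With single lines left out 1 to 9 were called higher, 9 without KMS-11, 8 without NCI-H929, 7 without OPM-2, 5 without MM1S, 4 without LP-1 and 1 without U-266, AMO-1 or either line of the KMS-12 pair, and 1 was called lower without OPM-2 or MOLP-8. The other call besides FGFR3 was CT75, a long non-coding RNA on chromosome 2. CT75 read 6.81 in KMS-11, 5.72 in LP-1, 5.88 in NCI-H929 and 5.31 in OPM-2, against 3.15 to 3.58 in the other MM lines. The difference was 2.57 on the log2 scale with a standard error of 0.21 (adjusted p 0.00334, a 5.95-fold difference). The groups did not overlap on CT75, its level in other MM was near the bottom of the scale, and the highest DLBCL line read 6.30 (median 3.40). Its adjusted p was 0.375 in the lines in 10% serum alone, where the difference was 2.59.

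A wider set of probe-sets had all 4 translocated lines on one side of all 8 other MM lines, 153 above (0.28%) and 108 below (0.198%). With 1 probe-set per gene 65 genes were above (0.329%) and 40 below (0.202%). An arbitrary split of the 12 lines into 4 and 8 would put about 1 in 495 on each side. The lower side lay at about that share, and the upper side somewhat above it. All but FGFR3 and CT75 failed the test, and the values that follow are descriptions. A gene named for a small p or separated groups is given at the 1 probe-set that was most extreme by that rule. Its other probe-sets are not shown.

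FAM30A, a long non-coding RNA gene that lies among the immunoglobulin heavy chain D and V segments on chromosome 14, had the largest difference after FGFR3 among the genes named for a small p. It read 6.92 in KMS-11, 8.31 in LP-1, 11.29 in NCI-H929 and 10.18 in OPM-2, against 4.37 to 5.44 in other MM and 3.96 to 7.80 in DLBCL. The groups did not overlap, and the difference was 4.54 with a standard error of 0.63 (adjusted p 0.113). With single lines left out its adjusted p (limma) ran from 0.00929, without KMS-11, the lowest of the 4, to 0.345. Its neighbour ADAM6, a transcribed pseudogene, differed by -0.09.

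VEGFC, the lymphatic growth factor, was dim in all lines, at 4.75 in KMS-11, 5.32 in LP-1, 5.32 in NCI-H929 and 5.19 in OPM-2, against 3.98 to 4.42 in other MM (difference 0.93, standard error 0.12, adjusted p 0.113). RGS20, which speeds up GTP hydrolysis by G protein alpha subunits, read 7.19, 5.16, 8.07 and 7.32 in KMS-11, LP-1, NCI-H929 and OPM-2, against 3.77 to 4.65 in other MM (difference 2.82, adjusted p 0.152). LP-1 was the low line for RGS20. With single lines left out the adjusted p (limma) ran from 0.000201, without LP-1, to 0.388. LINC00484, a non-coding RNA, was lowest in KMS-11 at 7.51 and highest in NCI-H929 at 9.51, with LP-1 at 8.11 and OPM-2 between KMS-11 and LP-1, against 3.86 to 7.30 in other MM (difference 3.50, adjusted p 0.314). RPMI-8226 held the value of 7.30. With single lines left out the adjusted p of LINC00484 (limma) ran from 0.0189, without RPMI-8226, to 0.591.

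Transcription factors stood among the genes with separated groups. ETV3, a repressor of the ETS family, was tightly placed in the translocated lines, from 10.18 to 10.40, against 8.86 to 9.70 in other MM and 7.73 to 9.02 in DLBCL (difference 1.04, adjusted p 0.314). SOX4, an HMG box factor of early B cells, read 7.57, 7.62, 7.41 and 8.56 in KMS-11, LP-1, NCI-H929 and OPM-2, against 4.00 to 7.17 in other MM (difference 2.70, adjusted p 0.519). MOLP-8 and AMO-1 were the other MM lines near the t(4;14) level of SOX4, at 7.17 and 7.09, and the DLBCL median was 8.73. ZNF503, a zinc finger repressor, was at 7.12 to 8.95 in the 4 lines, against 3.99 to 6.97 in other MM (difference 2.85, adjusted p 0.399), and did not exceed 4.66 in DLBCL. RORB, an orphan nuclear receptor, was split among the 4 lines, with 6.52 in KMS-11 and 6.74 in LP-1 but 4.60 in NCI-H929 and 4.78 in OPM-2, against 3.27 to 3.66 in other MM (difference 2.16, adjusted p 0.314). RUNX1T1, the corepressor known as ETO, was split the same way, at 8.24 in KMS-11 and 8.47 in LP-1, and at 3.80 in NCI-H929 and 3.71 in OPM-2, just above the highest other MM value of 3.69 (difference 2.60, adjusted p 0.776).

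The remaining genes of small p on the higher side were enzymes and membrane proteins. PMVK, phosphomevalonate kinase of the mevalonate pathway, was at 11.41 to 11.99 in the 4 lines, against 9.90 to 10.96 in other MM (difference 1.12, adjusted p 0.314). GLB1L2, a galactosidase-like protein, was at 7.37 to 9.45 in the 4 lines, against 6.61 to 7.11 in other MM (difference 1.95, adjusted p 0.314). With single lines left out its adjusted p (limma) ran from 0.000868, without OPM-2, the lowest of the 4, to 0.591. EPB41L3, a membrane skeleton protein, was at 3.90 to 5.42 in the 4 lines, against 3.08 to 3.41 in other MM (difference 1.28, adjusted p 0.314).

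On the lower side LCP1, the leukocyte actin-bundling protein L-plastin, had the largest difference among the genes of small p. It read 6.69 in KMS-11, 6.80 in LP-1, 7.71 in NCI-H929 and 6.80 in OPM-2, against 10.25 to 12.07 in 7 of the other MM lines and 7.75 in MOLP-8. The difference was -4.00 on the log2 scale with a standard error of 0.69 (limma, adjusted p 0.329). Without MOLP-8 it was -4.46 (adjusted p 0.00217), and with other single lines left out the adjusted p rose to as much as 0.613. In DLBCL LCP1 lay at 10.25 to 13.58, so that MOLP-8 was the 1 line outside the group that came near it. OSBPL3, an oxysterol-binding protein, was at 5.59 to 6.59 in the 4 lines, against 7.21 to 8.73 in other MM (difference -1.80, adjusted p 0.184).

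LIN28B, the RNA-binding protein that blocks let-7 maturation, was at 3.38 to 3.55 in the t(4;14) lines. In the other MM lines it read 10.95 in KMM-1, 9.06 in KMS-12-BM, 9.37 in KMS-12-PE, 3.57 in MM1S, 11.11 in MOLP-8, 6.02 in RPMI-8226, 9.63 in U-266 and 5.41 in AMO-1. MM1S lay just above the translocated lines, and the difference of -4.68 (standard error 1.32) had an adjusted p of 0.674. CHI3L1, a secreted chitinase-like protein, was also lowest in MM1S among the other MM lines, at 3.31 to 3.53 in the 4 lines, against 3.53 to 11.60 in other MM (difference -3.40, adjusted p 0.936). PDE4B, a phosphodiesterase of cyclic AMP, was at 3.60 to 4.03 in the 4 lines, against 4.60 to 9.85 in other MM, and at 6.34 to 11.64 in DLBCL (difference -3.20, adjusted p 0.513). GM2A, the activator of ganglioside breakdown, was at 4.72 to 5.53 in the 4 lines, against 6.18 to 9.70 in other MM (difference -2.24, adjusted p 0.480).

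The rest of the lower side held genes of mixed roles, none of them called. TMED4 and TMED5, cargo receptors between the endoplasmic reticulum and the Golgi, differed by -1.14 and -1.33, and SEC22C, a vesicle SNARE, by -0.55. SEC22C had a range of only 6.58 to 6.64 in the translocated lines, against 6.76 to 7.38 in other MM. BMAL2, a circadian transcription factor, was at 3.72 to 4.23 in LP-1, NCI-H929 and OPM-2 and at 6.01 in KMS-11, against 5.85 to 8.50 in other MM (difference -2.91, adjusted p 0.399), so its groups overlapped at KMS-11. PLEKHA8, GXYLT1, LRRC37B, EML6, ELP5 and FBXW2 differed by -0.82 to -1.63, with adjusted p of 0.399 to 0.402. TEX9, BSPRY and UAP1L1 lay below all other MM lines, by -3.08, -2.16 and -2.15 on average, with adjusted p of 0.440 to 0.761.

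**Figure D2:**
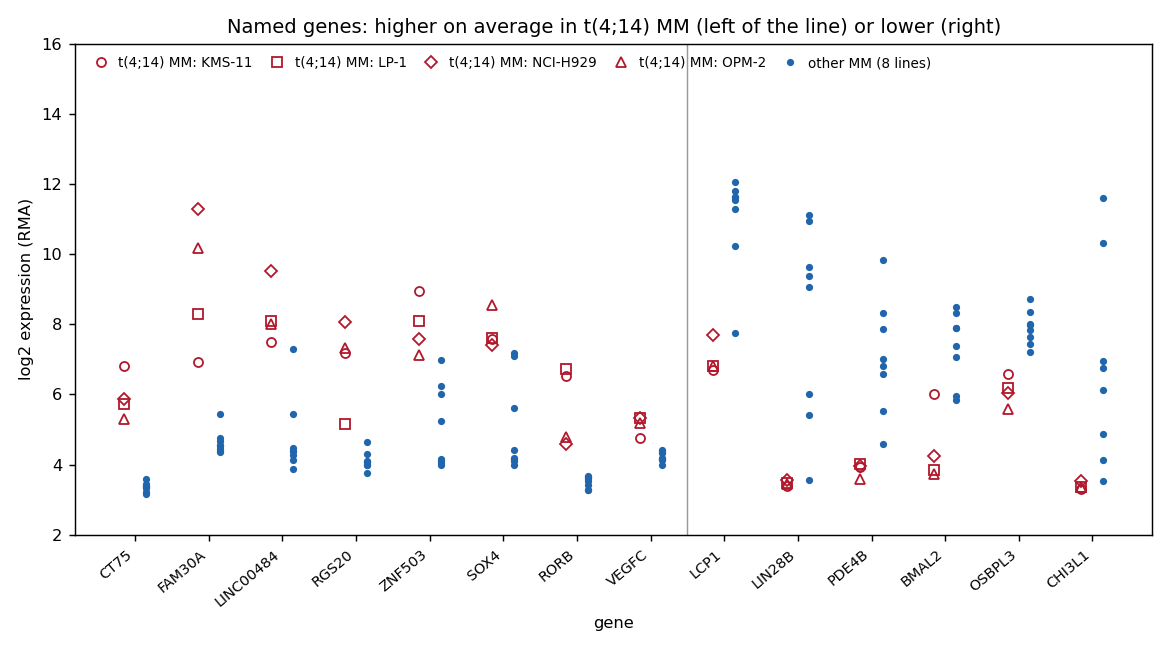
Log2 expression (vertical axis) of 14 named genes (horizontal axis) in the 4 t(4;14) MM lines (red open symbols, left of each pair) and the 8 other MM lines (blue points). CT75 lies at 5.31 to 6.81 in the t(4;14) lines and at 3.15 to 3.58 in other MM, FAM30A spreads from 6.92 to 11.29 in the t(4;14) lines, and MOLP-8 at 7.75 is the 1 low LCP1 value among the other MM lines.

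With the DLBCL lines added, the fit shared 1 estimate of the spread over 26 lines. For the same contrast 71 probe-sets were then called higher (0.13%) and 14 lower (0.0256%), both calls of the MM fit among them. DLBCL is another disease with its own spread, and a gene that is even in those lines can get a smaller error in this fit. The calls, and the shares drawn from them, carry that limit. The called probe-sets with 1 symbol stood for 39 genes on the higher side and 8 on the lower, and 11 of the 39 (28.2%) lay on chromosome 4, which holds 4.01% of all genes. The genes named from this fit were chosen after their values were seen. On chromosome 4 they were, beside FGFR3, NSD2 and VEGFC, TENM3 (difference 2.23), SH3RF1 (1.81), INTS12 (0.83), STBD1 (1.86), MFAP3L (2.55), CPE (0.91), GUCY1B1 (2.73) and IGFBP7 (3.53). The share thus includes FGFR3 and NSD2, the genes of the translocation itself. None of the others was among the 13 measured neighbours of the breakpoint, whose median difference was -0.05. INTS12, a subunit of the Integrator complex, was at 10.04 to 10.45 in the t(4;14) lines, against 9.11 to 9.79 in other MM. IGFBP7, a secreted binding protein of the insulin-like growth factor family, was at 5.75 to 8.96 in the 4 lines, against 3.07 to 9.07 in other MM, with overlap. In DLBCL it did not exceed 3.56, and its standard error was 1.07 in the MM fit and 0.73 in this fit. Its adjusted p (limma) was 0.742 in the MM fit and 0.0416 in this fit. VAMP8, a SNARE of vesicle fusion, was lower, at 4.51 to 9.83 in the 4 lines, against 8.41 to 11.62 in other MM (difference -3.47), and CHRM3, a muscarinic receptor, was lower on 3 probe-sets, with differences of -1.34, -1.56 and -2.37.

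Average expression by chromosome also placed chromosome 4 high. Among 10127 autosomal genes with a mean log2 level above 6 in the MM lines, 48.8% had a difference above 0. On chromosome 4 it was 223 of 325 genes (68.6%), with a median difference of 0.20. Chromosome 10 had 68.2% and chromosome 16 had 67.5% above 0, so chromosome 4 was not alone, and chromosome 13 had 32.3% with a median of -0.20 and chromosome 21 had 29.0%. The chromosome 4 median, taken against the mean of the other MM lines, was 0.12 in KMS-11, 0.33 in LP-1, 0.02 in NCI-H929 and 0.42 in OPM-2, and so was near 0 in NCI-H929. For chromosome 13 it was -0.33 in KMS-11, -0.19 in LP-1, -0.50 in NCI-H929 and 0.05 in OPM-2. DNA copy number was not analysed here, and its part in these shares was not tested.

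**Figure D3:**
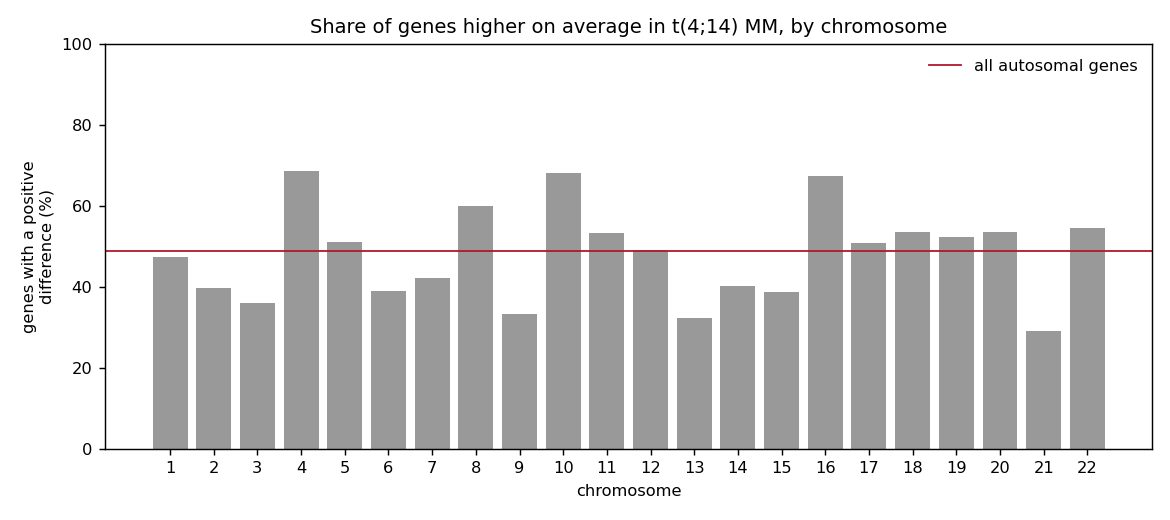
Share of genes with a positive log2 difference, t(4;14) MM minus other MM (vertical axis, percent), on each autosome (horizontal axis), for genes with a mean log2 level above 6. The red line is the share over all autosomal genes, 48.8%. Chromosomes 4, 10 and 16 stand at 68.6%, 68.2% and 67.5%, and chromosome 21 is lowest at 29.0%.

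Genes known from patient studies as markers of the t(4;14) expression subgroup mostly had higher means in the 4 lines. All 12 of the list were measured, and 1 was called, FGFR3, itself a gene of the translocation. Of the 12, 11 had a difference above 0, beside 47.8% of all 19775 genes. The median of the list was 1.97, or 1.52 at the probe-sets of the highest mean. CDH2, N-cadherin, read 8.04 in KMS-11, 6.86 in LP-1, 7.36 in NCI-H929 and 8.58 in OPM-2, against 4.21 to 7.47 in other MM with a median of 4.40 (difference 2.76, standard error 0.61, adjusted p 0.402). CRIM1, a membrane protein that binds bone morphogenetic proteins, read 9.60, 7.25, 9.29 and 8.48 in the same order, against 3.83 to 9.37 in other MM (difference 2.93, adjusted p 0.867). DSG2, a desmosomal cadherin, was at 7.78 to 9.91 in the 4 lines, against 4.11 to 10.00 in other MM (difference 2.33), with a median of 4.39 in other MM. CDH2, CRIM1 and DSG2 thus stood high in all 4 lines and in some of the other MM lines. MAL, a raft protein of the same list, was at 4.52 to 4.91 in the 4 lines, against 4.74 to 9.87 in other MM (difference -0.81).

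Adhesion and junction genes as a whole gave 14 of 23 above 0, 0 called and a median of 0.41. ITGB7, the integrin beta 7 chain, was at 12.12 to 13.43 in all 4 lines, against 6.99 to 14.03 in other MM with a median of 8.63 (difference 3.48, adjusted p 0.923). PKP2, a desmosomal plaque protein, was at 8.62 to 11.30 in the 4 lines, against 3.19 to 11.18 in other MM. ICAM3, a leukocyte adhesion molecule, ran the other way, with 5.95 in KMS-11, 4.47 in LP-1, 10.39 in NCI-H929 and 7.88 in OPM-2, against 7.22 to 11.69 in other MM (difference -2.99, adjusted p 0.911).

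Myelomas as a rule express at least 1 D-type cyclin, which drives entry into the cell cycle, and the translocated lines had CCND2. CCND2 read 12.33 in KMS-11, 12.77 in LP-1, 11.23 in NCI-H929 and 12.68 in OPM-2. In other MM it was at 12.25 to 13.31 in 5 lines and at 3.62 in KMS-12-BM, 3.90 in KMS-12-PE and 4.55 in MOLP-8, which made a difference of 2.79 (standard error 2.16, adjusted p 0.986). In the lines in 10% serum alone the CCND2 difference was -0.19. CCND1 read 4.11 in KMS-11, 3.90 in LP-1, 6.83 in NCI-H929 and 3.86 in OPM-2, against 4.06 to 11.95 in other MM, where KMS-12-BM, KMS-12-PE, MOLP-8 and U-266 stood at 11.14 to 11.95 (difference -3.78, adjusted p 0.986). CCND3 was at 7.66 to 9.36 in the 4 lines, against 8.07 to 9.10 in 7 other MM lines and 12.94 in KMM-1 (difference -0.48, and 0.06 without KMM-1). CDK6, the kinase partner of these cyclins, was at 10.27 to 12.75 in the 4 lines, against 5.21 to 11.72 in other MM (difference 2.07). Over the 15 measured genes of the list 10 had a difference above 0 and none was called, with a median of 0.03.

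MAF, the basic leucine zipper factor, was expressed in all 4 translocated lines, at 11.19 in KMS-11, 9.91 in LP-1, 10.20 in NCI-H929 and 9.14 in OPM-2. In other MM it was at 12.03 in MM1S, 12.10 in RPMI-8226 and 9.13 in KMM-1 and at 3.19 to 5.34 in the remaining 5 lines, and DLBCL lines did not exceed 4.25. The difference of 3.62 (standard error 1.91) had an adjusted p of 0.986. KMS-11 was the highest t(4;14) line for MAF but lay below MM1S and RPMI-8226. Of the MAF list, 6 of 10 measured members had a difference above 0, none was called, and the median was 1.81. The 4 below 0 were CX3CR1 (-1.37), ARID5A (-0.25), TLR4 (-0.23) and SMARCA1 (-0.03), so the list was split. DEPTOR, an inhibitor of mTOR, was at 10.46 to 11.95 in the 4 lines, against 5.73 to 12.27 in other MM (difference 2.22, adjusted p 0.975), and NUAK1, a kinase related to AMPK, at 6.34 to 8.28 in the 4 lines, against 3.85 to 9.63 in other MM. CCND2 and ITGB7 belong to this list too.

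No gene downstream of FGFR3 in the lists was called. Of the ERK feedback list, genes that ERK signalling induces and that damp it, 5 of 13 had a difference above 0, and the median was -0.20. With single lines left out the median ran from -0.66, without NCI-H929, to 0.39, without LP-1. Without LP-1 9 of 13 were above 0, so the sign of the list rested on that line. DUSP6, a phosphatase of ERK, read 8.55 in KMS-11, 3.10 in LP-1, 10.81 in NCI-H929 and 8.86 in OPM-2, against 3.21 to 9.99 in other MM. SPRY1, an inhibitor of receptor kinase signalling, read 7.59, 6.39, 6.86 and 8.87 in that order, against 4.47 to 7.88 in other MM (difference 1.24, standard error 0.60, adjusted p 0.986). LP-1, the line of lowest FGFR3 and the only 1 of the 4 in IMDM, was the lowest of the 4 on every gene of the ERK feedback list. A link of these values to FGFR3 or to the medium was not tested. Of the FGF receptors and their adaptors 6 of 12 were above 0 and none was called. The adaptor SHC1 lay above all other MM lines, at 11.88 to 12.27 in the 4 lines, against 10.21 to 11.65 in other MM (difference 0.82, adjusted p 0.653), and FGFR2 was at 8.75 in KMS-11 and at 4.11 to 5.81 in the other 3 lines, against 4.05 to 5.80 in other MM.

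Histone methylation regulators other than NSD2 gave 6 of 21 above 0, 0 called and a median of -0.22. DNMT3A, a DNA methyltransferase, read 8.41 in KMS-11, 7.86 in LP-1, 7.48 in NCI-H929 and 5.96 in OPM-2, against 5.89 to 7.25 in other MM (difference 0.83, adjusted p 0.986). SETD2, which trimethylates lysine 36 of histone H3, was at 4.32 to 6.20 in the 4 lines, against 5.03 to 6.74 in other MM (difference -0.67). EZH2, the catalytic subunit of the opposing Polycomb complex, was at 9.48 to 10.85 in the 4 lines, against 9.54 to 10.66 in other MM (difference -0.09).

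Of the interferon-stimulated genes 33 of 37 measured had a difference below 0, with a median of -0.63 and none called, and RPMI-8226 and U-266 carried this. The list's mean level ran from 5.65 to 6.65 in the translocated lines, against 9.10 in RPMI-8226, 8.66 in U-266 and 5.62 to 6.69 in the remaining 6 other MM lines. With RPMI-8226 and U-266 left out, a choice made after seeing the data, 18 of 37 were below 0 and the median was 0.09. IFIT1, an interferon-induced inhibitor of foreign RNA, was at 3.58 to 4.07 in the 4 lines, against 9.66 in RPMI-8226, 7.33 in U-266 and 3.59 to 4.25 in the remaining other MM lines. MX2, an antiviral GTPase, was at 5.64 to 6.38 in the 4 lines, against 5.21 to 11.21 in other MM (difference -1.95, standard error 1.22), and IFITM1, a membrane restriction factor, at 5.76 to 9.09 in the 4 lines, against 6.39 to 10.41 in other MM (difference -1.79). MX2 stood at 9.37 to 11.21 in KMS-12-PE, MOLP-8, RPMI-8226 and U-266 and at 5.21 to 5.87 in the remaining 4 other MM lines, so the groups overlapped. MHC class II genes gave 11 of 12 below 0, none called and a median of -0.92, which was -0.38 without NCI-H929, -0.42 without OPM-2 and -1.94 without LP-1, and they split the translocated lines. HLA-DRA read 12.43 in KMS-11 and 13.70 in LP-1 but 5.34 in NCI-H929 and 6.91 in OPM-2, against 4.34 to 13.61 in other MM. CD74, the invariant chain, was split likewise, at 12.84 in KMS-11, 13.59 in LP-1, 5.27 in NCI-H929 and 6.20 in OPM-2, while HLA-DQA1 was at 4.08 to 4.48 in all 4 and at 3.95 to 10.95 in other MM. MHC class I genes gave 9 of 14 above 0 and a median of 0.20, with ERAP2, a trimming peptidase, at -1.74.

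NF-kB pathway genes and targets gave 17 of 20 below 0, none called and a median of -0.38, or -0.15 without OPM-2. ICAM1 was at 7.54 in KMS-11, 8.48 in LP-1, 8.21 in NCI-H929 and 4.16 in OPM-2, against 7.02 to 10.19 in other MM, and TNFAIP3, an inhibitor of NF-kB, at 6.81 to 9.76 in the 4 lines, against 6.45 to 11.04 in other MM. REL, a subunit of NF-kB, had a difference of 1.56. Cancer-testis antigens gave 10 of 13 below 0 and a median of -0.95, or -2.05 without NCI-H929 and -1.61 without OPM-2, again with the lines split: MAGEA6 read 3.86 in KMS-11 and 3.90 in LP-1 but 12.95 in NCI-H929 and 12.89 in OPM-2, against 4.76 to 13.15 in other MM. MYCN, a MYC family factor, read 9.07 in KMS-11, 7.03 in LP-1, 5.57 in NCI-H929 and 7.77 in OPM-2, against 5.09 to 6.67 in other MM (difference 1.65, adjusted p 0.816), and MYC itself differed by 0.39.

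**Figure D4:**
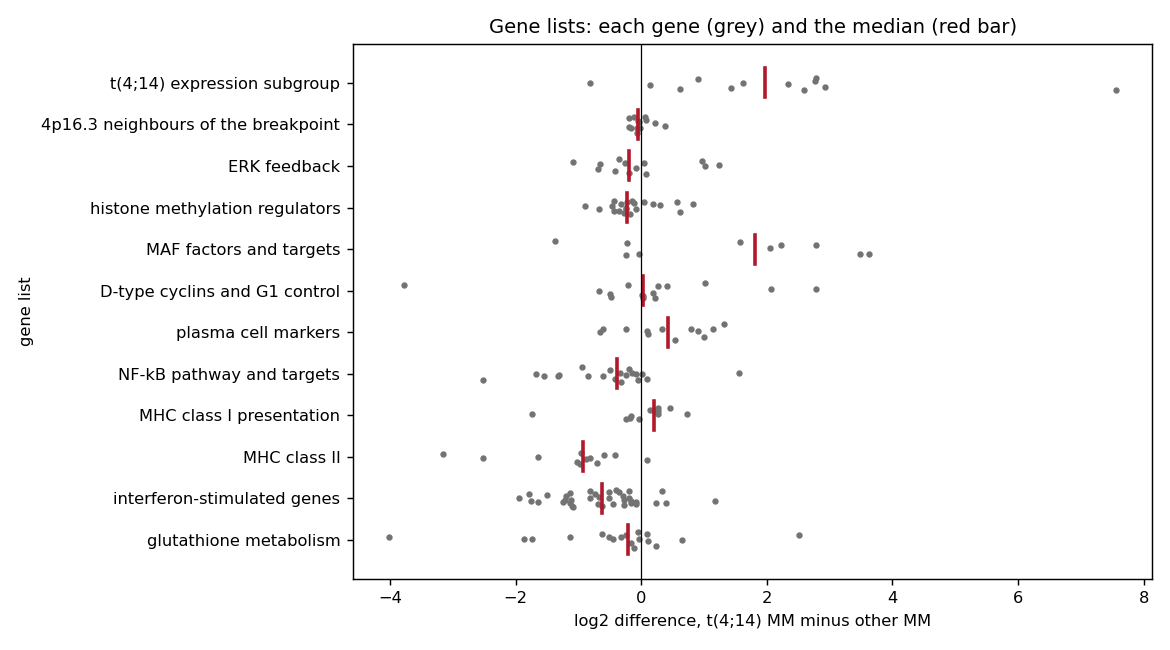
Log2 difference, t(4;14) MM minus other MM (horizontal axis), of each measured gene (grey points) in 12 of the gene lists (vertical axis), with the list's median (red bar). The t(4;14) subgroup list has its median at 1.97 and the MAF list at 1.81, the neighbours of the breakpoint cluster at -0.05, and the MHC class II list has its median at -0.92.

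No gene was called in the lists of drug handling, topoisomerases, microtubules, DNA repair and cell death, or in the remaining lists given here. Glutathione genes had 13 of 18 below 0 and a median of -0.21. MGST1, a membrane glutathione transferase, read 9.69 in KMS-11, 3.15 in LP-1, 4.69 in NCI-H929 and 3.71 in OPM-2, against 3.26 to 11.63 in other MM (difference -4.01, adjusted p 0.925), and GSTM3 was at 9.85 in KMS-11 and 8.61 in NCI-H929, at 3.73 in LP-1 and 3.81 in OPM-2, and at 3.56 to 4.55 in other MM. Topoisomerases had 3 of 6 above 0 and a median of 0.02, drug efflux transporters 7 of 9 and 0.13, aldehyde dehydrogenases 6 of 10 and 0.09, tubulins and microtubule binders 10 of 23 and -0.17, spindle checkpoint genes 3 of 13 and -0.04, and DNA repair genes 7 of 22 and -0.16. ABCB1, the P-glycoprotein pump, was low in all 12 lines, at 3.51 to 3.94 in the 4 lines, against 3.69 to 4.86 in other MM. TOP1, topoisomerase I, was at 9.67 to 10.27 in the 4 lines, against 8.75 to 10.00 in other MM (difference 0.71), and MGMT, which removes alkyl groups from guanine, at 8.46 to 9.31 in the 4 lines, against 5.94 to 9.05 in other MM (difference 1.29, adjusted p 0.960). Among pro-apoptotic genes, 4 of 10 above 0, BCL2L11, which encodes BIM, read 3.92 in LP-1 and 9.01 to 9.70 in the other 3 lines, against 8.68 to 11.43 in other MM. Anti-apoptotic genes had 1 of 5 above 0 (median -0.45), p53 targets 6 of 16 (-0.14), proliferation genes 4 of 21 (-0.21), IL6 and JAK-STAT genes 10 of 15 (0.05), MYC family genes 5 of 9 (0.17) and myeloma surface antigens 12 of 18 (0.13).

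Each of the 4 lines also had genes of its own, chosen by the largest gap to the nearest of the other 3 and given as a description. Each gene is given at the 1 probe-set of its largest gap, and other probe-sets of it may differ. KMS-11 had 11.41 of GJA1, the gap junction protein connexin 43, and 11.51 of PEG10, an imprinted gene derived from a retrotransposon, while the other 3 lines did not exceed 3.39 and 3.64. KMS-11 had only 4.44 of SLAMF7, the myeloma surface receptor that the other 3 carried at 12.18 to 12.29. LP-1 had 4.45 of COX7A2, a subunit of cytochrome c oxidase, against 11.90 to 12.56 in the other 3, 3.20 of RAB4A, a GTPase of endosome recycling, against 8.98 to 9.42 in them, and 10.03 of RALGAPA2, which inactivates RAL GTPases, against 3.59 to 3.85 in them. NCI-H929 had 13.64 of NES, the intermediate filament nestin, against 5.77 to 6.07 in the other 3, 10.39 of C16orf54 against 2.90 to 3.37 in them, and 13.54 at a probe-set of IGHD, the immunoglobulin delta locus, against 5.82 to 6.47 in them. OPM-2 had 4.47 of GSTO1, a glutathione transferase, against 10.80 to 11.08 in the other 3, 12.06 of MYBPC2, a myosin-binding protein, against 5.49 to 6.15 in them, and 11.49 at a probe-set of IGLC1, a lambda light chain constant gene, against 5.78 to 6.01 in them. Near-identical immunoglobulin genes can share probes, so the IGHD and IGLC1 readings may include related genes. In the 8 other MM lines RALGAPA2, IGHD and IGLC1 did not exceed 3.88, 6.84 and 6.35, and RAB4A did not fall under 7.81, so that these 4 genes set 1 line apart from the other 11. The remaining 8 genes had at least 1 other MM line on the same side, such as 13.03 of NES in KMM-1, 4.44 of COX7A2 in KMS-12-PE and 12.31 of MYBPC2 in MOLP-8.

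As whole profiles the 4 lines did not form a tight group. After each probe-set was centred over the 12 MM lines, the correlation across probe-sets ran from -0.126 to 0.126 over the 6 pairs of t(4;14) lines (median -0.009), had a median of -0.131 over the 32 pairs of a t(4;14) line with another MM line and of -0.103 over the 28 pairs of other MM lines. Centring over so few lines by itself pulls such correlations below 0. Within the group LP-1 and OPM-2 were the closest pair, at 0.126, and KMS-11 and NCI-H929 the farthest, at -0.126. KMS-11 was closest to MM1S, at 0.091, and NCI-H929 to RPMI-8226, at 0.065, both outside the group. For comparison, the KMS-12 pair from 1 patient reached 0.301. The pairs share lines and each line has 1 array, so these values are descriptions.

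Most plasma cell markers were high in the 4 lines, and the B-cell markers PAX5 and MS4A1 were far below their levels in DLBCL. PRDM1, XBP1 and TNFRSF17, plasma cell regulators and the BCMA receptor, were at 10.57 to 11.95, 11.45 to 12.92 and 12.93 to 14.15 in the translocated lines, and SDC1 at 9.48 to 12.23 in the 4 lines, against 6.49 to 13.78 in other MM. The plasma cell list had 9 of 12 above 0 with a median of 0.43, and none was called. PAX5 and MS4A1, which mark B cells, were at 3.35 to 4.82 and 3.51 to 3.64, against DLBCL medians of 10.99 and 13.12, and the B-cell list had 5 of 14 above 0. Other genes of that list were present: BCL11A, a zinc finger factor of B cells, read 8.96 in KMS-11, 8.39 in LP-1, 4.44 in NCI-H929 and 8.25 in OPM-2, against 3.42 to 9.55 in other MM (difference 0.74), and BACH2, a repressor of plasma cell genes, was at 6.26 to 8.77 in the 4 lines, against 5.47 to 9.05 in other MM (difference 0.58). None of the 10 T-cell, 8 NK, 7 myeloid and 10 stromal markers measured was called, with mean list levels of 4.31 to 5.30 in the translocated lines and 4.39 to 5.75 in other MM. Exceptions among the plasma cell markers were SLAMF7, low in KMS-11 as given above, and CD38, which was at 5.58 in KMS-11 and 8.06 to 11.06 in the other 3, against 7.06 to 11.78 in other MM.

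Drug response was compared with AUC0, which sums the dose response over the doses that still allowed growth, so that a higher value means more resistance. The labels give 1 AUC0 per line and drug with an interval, and mafosfamide stood in for cyclophosphamide, which needs activation in the liver. For cyclophosphamide AUC0 was 318 in KMS-11, 308 in LP-1, 322 in NCI-H929 and 303 in OPM-2, against 242 to 395 in other MM. All 4 t(4;14) lines lay in the middle of that range. The means were 313 ± 8.77 in t(4;14) MM and 318 ± 55.5 in other MM (SD, n = 4 and 8), and the difference of -5.25 had a 95% interval of -66.8 to 59.8 (exact permutation test over all splits of the 12 lines, two-sided, p = 0.865, adjusted p = 0.865). It was 3.04 without U-266 and 5.75 without AMO-1.

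For doxorubicin AUC0 was 356 in KMS-11, 316 in LP-1, 291 in NCI-H929 and 329 in OPM-2, against 227 to 346 in other MM with a median of 311. KMS-11 was the most resistant of the 12 MM lines. The means were 323 ± 27.1 in the 4 lines and 298 ± 44.4 in other MM, with a difference of 24.5 (-28.5 to 82.5, exact permutation p = 0.347, adjusted p = 0.521). For vincristine AUC0 was 123 in KMS-11, 187 in LP-1, 149 in NCI-H929 and 95 in OPM-2, against 90 to 149 in other MM. LP-1 was the most resistant of the 12, and the means were 138 ± 39.1 in the 4 lines and 115 ± 20.0 in other MM, with a difference of 23.2 (-17.8 to 64.8, exact permutation p = 0.214, adjusted p = 0.521). Without LP-1 the vincristine difference was 7.08, and without OPM-2, the lowest of the 4, it was 37.8 (exact permutation p = 0.0606). No drug passed, the smallest p the design allows is 0.00404, and each of the 3 intervals includes 0. In DLBCL the medians were 260, 262.5 and 85 for cyclophosphamide, doxorubicin and vincristine.

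**Figure D5:**
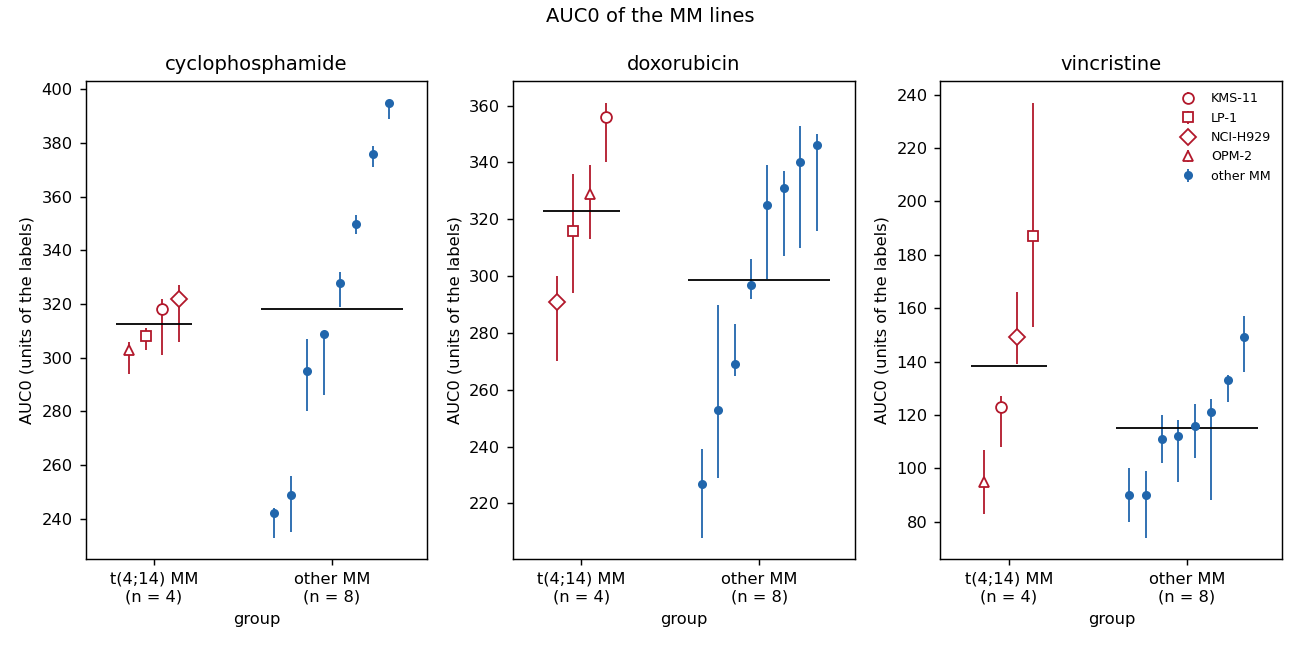
AUC0 (vertical axis, units of the labels, higher is more resistant; axes do not start at 0) of the 4 t(4;14) MM lines (red open symbols) and the 8 other MM lines (blue), with the interval given in the labels for each line and the group mean as a black line. The t(4;14) lines span only 303 to 322 for cyclophosphamide, KMS-11 is highest for doxorubicin at 356 and LP-1 for vincristine at 187.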

How the data were processed

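Log2 expression values were deposited by the authors for 26 lines on HG-U133 Plus 2.0 arrays after RMA, and R 3.0.1 and affy are named in the submitters' processing notes. RMA matches quantiles between arrays, so their medians are nearly equal (5.65 to 5.71 in MM). Scanner files were not used here. AUC0 values came from the labels.

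Of 54675 probe-sets, 62 controls were left out. Symbols came from GEO's platform annotation: 41091 probe-sets had 1 symbol, 1801 several and 11721 none, and only the first kind was named. RefSeq supplied chromosomes and promoters. Differences, t(4;14) MM minus other MM, came from limma 3.58.1 (R 4.3.3) without covariates over the 12 MM lines, with Benjamini-Hochberg adjustment over all 54613 probe-sets and a threshold of 0.05. Since each line has 1 array, the line is the replicate and the error is the spread between lines. The number of arrays limits the precision. AUC0 was tested by exact permutation over 495 splits with intervals by test inversion, adjusted over 3 drugs, with scipy 1.17.1 under Python 3.11.15 (pandas 2.3.3, numpy 2.4.6). Figures were drawn with matplotlib 3.10.9.

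The 4 lines and 33 gene lists (481 genes, 31 without a probe-set) were chosen with earlier results of these data known. A list gene was read at its probe-set of greatest SD among the MM lines, and lists are described by counts and medians. The D-type cyclins and MAF were read likewise. Genes named for a small p, separated groups or a gap were read at their most extreme probe-set by that rule. Named genes were every probe-set of NSD2 and FGFR3, the 12 genes of smallest p in each direction, called list members, the 8 genes in each direction with separated groups and the largest difference, the 3 genes per line with the largest gap within t(4;14) MM, the D-type cyclins and MAF, and 2 to 4 examples of a list, to which other list members were added after their values were seen. On simulated data for this comparison of 54613 probe-sets, limma recovered 55.2% of planted log2 differences of 1, 80.6% of 2 and 93.9% of 4, with 12 false calls. The simulated noise was normal and independent between probe-sets, and the many planted changes eased the adjusted threshold. These shares therefore check the procedure and do not give its power in the real data, where only 2 probe-sets were called. Alternatives were 1 probe-set per gene, a filter on dim probe-sets, another prior, centred arrays, all 26 lines, a serum term, averaged sister lines, each line left out, the probe-set of the highest mean for lists, ranks for AUC0 and, chosen after seeing the data, the lines in 10% serum only for the probe-sets, single lines left out for the list medians, and RPMI-8226 and U-266 left out for the interferon-stimulated genes.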

Additional observations from a re-analysis of the deposited data

Results flagged for a closer look

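In 24 of 118 groups of 4 or 8 lines the highest or lowest line stood apart from the rest by Dixon's test at 95%, where chance gives about 1 in 20. Of these, 12 were genes chosen for such a gap and had to be found: GJA1 at 11.41, PEG10 at 11.51 and SLAMF7 at 4.44 in KMS-11, COX7A2 at 4.45, RALGAPA2 at 10.03 and RAB4A at 3.20 in LP-1, NES at 13.64, IGHD at 13.54 and C16orf54 at 10.39 in NCI-H929, and GSTO1 at 4.47, MYBPC2 at 12.06 and IGLC1 at 11.49 in OPM-2.

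Within the t(4;14) lines the other 4 were LCP1 in NCI-H929 (7.71, with 6.80 the next), CCND1 in NCI-H929 (6.83, next 4.11), TMED5 in OPM-2 (7.32, next 6.49) and GM2A in KMS-11 (4.72, next 5.50). Within the other MM lines they were NSD2 222777_s_at in RPMI-8226 (6.02, next 7.29), FAM30A in MOLP-8 (5.44, next 4.75), LINC00484 in RPMI-8226 (7.30, next 5.44), LCP1 in MOLP-8 (7.75, next 10.25), COX7A2 in KMS-12-PE (4.44, next 11.90), NES in KMM-1 (13.03, next 9.05), GSTO1 in U-266 (5.12, next 10.04) and CCND3 in KMM-1 (12.94, next 9.10). The low level of COX7A2 was thus shared by LP-1 and KMS-12-PE, that of GSTO1 by OPM-2 and U-266, and the high level of NES by NCI-H929 and KMM-1.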

How the results depend on the processing

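The count of called probe-sets depended on the lines in the fit. With 2 higher and 0 lower in the 12 MM lines, it was 1 higher without dim probe-sets, with the serum term or with the KMS-12 lines averaged, 71 higher and 14 lower with all 26 lines, and 0 higher in the lines in 10% serum only, a setting chosen after seeing the data. With single lines left out it ran from 1 to 9 higher, 9 without KMS-11, 8 without NCI-H929, 7 without OPM-2, 5 without MM1S, 4 without LP-1 and 1 without KMS-12-BM, KMS-12-PE, U-266 or AMO-1, and from 0 to 1 lower, the 1 being LCP1 without MOLP-8 and TMED4 without OPM-2. CT75 was not tested where dim probe-sets were left out and was called in every other setting except the lines in 10% serum. The cause of these shifts was not tested. Most of the 44 named probe-sets followed here were chosen for a small p or separated groups in these data. Their direction was therefore largely fixed in advance, and their count is not a test of it. Over these 44 probe-sets 858 of 860 alternative values kept their direction. The exceptions were CCND2 at -0.19 in 10% serum only and CCND3, which ran from -0.72 to 0.06 with single lines left out, at 0.06 without KMM-1. The cyclophosphamide AUC0 difference ran from -16.1 to 5.75 with single lines left out, and turned to 3.04 without U-266 and to 5.75 without AMO-1. The subgroup list's median was 1.52 with the probe-set of the highest mean. Each of the other 32 list medians moved by less than the SD of that list's own median between the t(4;14) lines. With single lines left out, a choice made after seeing the data, list medians ran from 1.7 to 2.29 for the subgroup, 1.25 to 2.47 for MAF, 0.15 to 0.94 for plasma cell markers, 0.16 to 0.63 for adhesion genes, -0.54 to -0.15 for NF-kB, -0.66 to 0.39 for ERK feedback, -1.94 to -0.38 for MHC class II, -2.05 to -0.74 for the cancer-testis antigens and -0.75 to -0.32 for the interferon-stimulated genes, whose median was 0.09 with RPMI-8226 and U-266 both left out. No paired analysis was possible because the replicate numbers were given in accession order and pair no lines. FGFR3, CT75, VEGFC, RORB, RGS20, EPB41L3 and RUNX1T1, among others, were read near the lower end of the scale in the other MM lines. There a signal cannot be told from background. FAM30A lay there in most of the other MM lines, and LIN28B, CHI3L1 and PDE4B did in the t(4;14) lines.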
